A study of Mus musculus with 13 samples.

Results

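Integrins are paired adhesion receptors of an alpha and a beta chain, and Ptprc encodes CD45, a transmembrane tyrosine phosphatase. The gene set described here holds 9 genes, the alpha chains Itgam, Itgax, Itgal, Itgav and Itga6, the beta chains Itgb1, Itgb2 and Itgb5, and Ptprc, of 17727 genes common to all plates of the study. They were taken by name and not by their values, and each was measured on every plate. Male C57BL/6J mice received standard chow as control (NC) or a high-fat diet (HFD, 60% fat) for 1 day, 3 days, 1 week, 4 weeks, 9 weeks or 16 weeks. Microglia were sorted by FACS as CD45lo CD11b+ cells into single wells and sequenced by CEL-Seq2, which counts the 3′ ends of transcripts by unique molecular identifiers (UMIs). The methods of the study describe the sequenced cells as hypothalamic, while the labels list other dissected brain regions as well. CD45 is the product of Ptprc and CD11b that of Itgam, so the gate had already chosen cells by 2 of these 9 proteins. Ages were not given in the sources used here, and several well names carry a number of weeks that these sources do not explain.

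An integrin beta chain must pair with an alpha chain to reach the cell surface, and one beta chain serves several alpha chains. Itgb2 (CD18) joins Itgam to form complement receptor 3, which binds complement-coated particles, Itgax (CD11c) to form complement receptor 4, and Itgal to form LFA-1, which binds ICAM molecules. Itgav pairs with Itgb5 in a receptor for vitronectin, and Itga6 pairs with Itgb1 in a receptor for laminin. CD45 removes an inhibitory phosphate from Src family kinases, which act downstream of integrins. In brain, Itgam and a low level of CD45 mark microglia, and Itgax is known from subsets of activated microglia and from dendritic cells.

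The genes lay on 6 chromosomes. Itgam (ENSMUSG00000030786) spans chr7:128062640-128118491 on the plus strand of GRCm38, and Itgax (ENSMUSG00000030789) follows it on the same strand at chr7:128129547-128150657, with 11055 bases between them. Itgal (ENSMUSG00000030830) is also on chromosome 7, at chr7:127296260-127335138. All 9 are protein-coding in the annotation. The annotated gene Gm49368 shares exons with Itgam on the same strand, and Gm13684 overlaps an exon of Itgav on the opposite strand. Reads in these exons could have been left out or assigned to either gene, for Itgav only if strand was not used. RefSeq gave the 250 bases upstream of a transcript start for 6 of the 9 genes. The windows of Itgam and Itgax are shown because these neighbours differed widely in level. The capitals mark GAGGAA or its reverse complement TTCCTC, the core letters of the box bound by PU.1, the ETS factor of the myeloid lineage. Both windows are on the plus strand of GRCm38.p6, at chr7:128062390-128062639 for Itgam and at chr7:128129300-128129549 for Itgax.
Itgam: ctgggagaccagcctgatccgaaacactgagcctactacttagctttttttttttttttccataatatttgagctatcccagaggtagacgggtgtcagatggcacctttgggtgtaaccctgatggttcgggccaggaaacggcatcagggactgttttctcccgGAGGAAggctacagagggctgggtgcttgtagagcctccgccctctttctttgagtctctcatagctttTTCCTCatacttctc
Itgax: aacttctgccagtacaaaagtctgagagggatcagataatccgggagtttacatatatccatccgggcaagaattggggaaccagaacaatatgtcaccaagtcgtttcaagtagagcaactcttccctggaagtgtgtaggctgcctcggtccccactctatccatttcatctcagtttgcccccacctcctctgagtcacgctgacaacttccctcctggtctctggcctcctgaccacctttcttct
The Itgam window held the letters once on each strand, and the Itgax window did not hold them. They occurred in 23.3% of 32851 windows of the same length, and the window of Itgb5, at a level near that of Itgam, did not hold them either. The window of Itgav, at a far lower level than Itgam, held them once on each strand. That of Itgb1 held them on 1 strand, and Ptprc had a window with them and a window without.

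The study filled 13 plates of 192 wells. Wells with at least 1500 transcripts were kept, 1617 of 2496, with a median of 2840 transcripts. Of these, 722 were NC wells, 161 were from 1d HFD, 121 from 3d HFD, 172 from 1-week HFD, 128 from 4-week HFD, 82 from 9-week HFD and 231 from 16-week HFD. Wells with the same replicate identifier, diet and plate were added into a sum where at least 5 were present, which gave 68 sums of 22774 to 219199 transcripts. Whether an identifier stands for 1 mouse was not stated, so p-values measure the spread between these sums or identifiers, which may be technical. The microglial markers Cx3cr1 and Csf1r each had a UMI in 99.8% of wells, and P2ry12 in 99.1%. Lymphocyte markers, of which all plate tables list only Cd3d and Ms4a1, reached 3 UMIs in 0 of 1617 wells, monocyte markers in 16, border-associated macrophage markers in 18 and dendritic cell markers in 1. Neutrophil markers reached 3 UMIs in 595 wells, and in 2 when Csf3r was taken off their list, which leaves S100a9 alone. Transcripts of antigen presentation by MHC class II (Cd74, H2-Eb1, H2-Aa, H2-Ab1) reached 5 UMIs in 41 wells, 33 of them on plates 4 and 5.

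NC microglia carried 7 of the 9 genes at a clear level and 2 at the edge of detection. Levels are given as counts per 1000000 transcripts (CPM) of the sum, over 28 NC sums, and because 3′ ends were counted they do not scale with transcript length. Itgam had a median of 878 CPM, with a range of 373 to 1296, and at least 1 UMI in 85.2% of 722 NC wells. Itgb5 followed with a median of 807 CPM and a range of 577 to 1284. These were the highest alpha and beta chain, and Itgam was above Itgb5 in 19 of 28 sums. Ptprc had a median of 563 CPM (254 to 771), Itgb2 of 540 CPM (219 to 817) and Itga6 of 481 CPM (201 to 775). The order of these 3 was not fixed, since Ptprc was above Itgb2 in 14 of 28 sums and Itgb2 above Itga6 in 16. Itgb1, the broadly used beta chain, had a median of 234 CPM (114 to 356), below Itga6 in 25 of 28 sums, and Itgav one of 181 CPM (107 to 328), below Itgb1 in 21.

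Itgax and Itgal stood far below Itgam, which shares with them the partner Itgb2. Itgax had a median of 6.53 CPM over the NC sums (0 to 71.3) and a UMI in 27 of 722 NC wells, a share of 3.74% with an exact (Clopper-Pearson) 95% interval of 2.48 to 5.40%. Itgal was at 0 in most sums, with a highest value of 25.4 CPM and 5 UMIs in 5 of 722 wells, a share of 0.693% (0.225 to 1.61%). These intervals cover counting error only. Itgav, the lowest of the other 7 genes, was above Itgax in 28 of 28 sums. Over all diets Itgax gave 91 UMIs in 66 of 1617 wells, and 17 of these wells had 2 or more. The wells with Itgax came from 31 replicates and every plate.

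**Figure D1:**
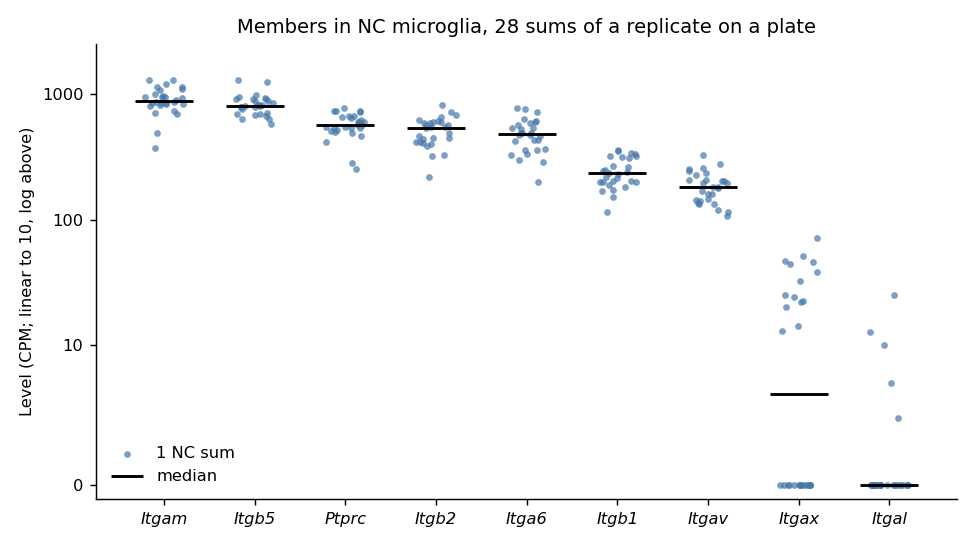
Level of each of the 9 genes in NC microglia. The y axis is CPM, linear up to 10 and logarithmic above, each point is 1 of 28 sums of an NC replicate on a plate and the bar is their median. Itgam (878 CPM) and Itgb5 (807 CPM) lead, Ptprc, Itgb2 and Itga6 overlap, and Itgax and Itgal lie at or near 0.

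The 8 integrin chains held 93.4% of the UMIs of the 21 integrin subunits that all plate tables list. Itgam alone held 26.4% and Itgb5 23.6%, followed by Itga6 with 15.9% and Itgb2 with 14.7%. Among the 13 other subunits, the leading 2 were Itgb3, a second partner of Itgav, at a median of 82.0 CPM, and Itga9, a partner of Itgb1, at 77.1 CPM. Both were above Itgax, and Itgb3 was below Itgav, by their medians. Another 5 listed genes of the family, Itgad among them, were not in all plate tables and were not analysed here.

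Variation over wells beyond counting was below the midpoint of all well-detected genes for 6 of the 7 genes. The squared coefficient of variation beyond counting noise, over NC wells, was 0.118 for Itgam, 0.115 for Itgb5, 0.165 for Itgb2, 0.194 for Ptprc and 0.245 for Itga6. Across the 1021 genes with at least 0.5 UMIs per well its median was 0.261, so these 5 and Itgav (0.191) were below that midpoint, and Itgb1, at 0.275, was just above it. Itgax had 6.68, at a mean of 0.054 UMIs per well, so low that counting noise itself is larger than this value. The SD over 28 NC sums, plates and replicates together, was 1.65 times the counting SD for Itgam, the widest of the 9, 1.45 times for Itga6, 1.39 times for Itgb2 and 0.934 times for Itgav. Sums of the same replicate on different plates spread about as much as sums of different replicates on 1 plate for most of the genes, with SDs of 197 and 199 CPM for Itgam and of 128 and 126 CPM for Itga6.

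Correlations between partner chains from well to well were weak. Within plates, after scaling each well's count to its depth and to the mean of its replicate, Pearson's r between Itgam and Itgb2 had a median of 0.0116 over 13 plates (-0.109 to 0.373). For Itgav and Itgb5 it was 0.0585, and the highest median of the 36 pairs was 0.0817, for Itgb2 and Itgb5. Such values in sparse counts are a description and no finding. Over 68 sums, with plate means removed, the gene most like Ptprc among 3189 genes was Emc7 (r = 0.611), that most like Itgav was Mef2c (r = 0.594) and that most like Itgam was Arid4a (r = 0.552). For Itgb2 it was Myl6 (0.507), for Itga6 Ifngr2 (0.499), for Itgb5 Tlr1 (0.461) and for Itgb1 Sqrdl (0.451). Sums of 1 plate share depth and library preparation.

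HFD was compared with NC within the plates that held both, with the plate as a block, by the edgeR quasi-likelihood test on all genes that passed its filter. The comparisons had 6 HFD against 6 NC sums for 1d HFD, 4 against 5 for 3d HFD, 5 against 7 for 1-week HFD, 3 against 2 for 4-week HFD, 6 against 12 for 9-week HFD and 10 against 18 for 16-week HFD. At 9 and 16 weeks sums of 1 identifier on several plates entered the fit as separate samples, 18 sums from 6 identifiers and 28 sums from 14, so that those errors and p-values rest on sums and not on identifiers. Several lengths share NC sums, so their values are set side by side and are not independent. In each comparison 7 of the 9 genes were tested, and Itgax and Itgal were too low. No gene of the set passed an adjusted p of 0.05 at any length, and few genes of any kind did. The share of all tested genes that passed was 0% of 1383 for 1d HFD, 0% of 938 for 3d HFD, 0.294% of 1700 for 1-week HFD, 0% of 1856 for 4-week HFD, 0.0809% of 1236 for 9-week HFD and 0% of 1760 for 16-week HFD. At an unadjusted p under 0.05, 3 of the 42 values of these genes passed, 1 each at 1 day, 9 weeks and 16 weeks. Of all tested genes, 5.86% passed so at 1 day, 7.04% at 3 days, 5.65% at 1 week, 1.35% at 4 weeks, 7.2% at 9 weeks and 5.91% at 16 weeks. By DESeq2 also, 0 of the 7 genes passed at any length.

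The fold changes were small and their intervals excluded large ones in most cases. Over the 42 values, log2 fold changes ran from -0.65 to 0.38, and in 39 the 95% confidence interval lay within 1 log2 unit of 0. The exceptions were Itgav at 3 days and 2 values at 4 weeks, where 2 residual degrees of freedom remained. At 16 weeks, where repeat plates of an identifier counted as samples, no interval reached beyond -0.43 or 0.50. The median log2 fold change of the 7 genes was 0.11 at 1 day, -0.10 at 3 days, -0.12 at 1 week, 0.00 at 4 weeks, 0.03 at 9 weeks and 0.06 at 16 weeks, beside medians over all tested genes between -0.01 and 0.02. A test that the effect of all lengths is the same passed for 0.0314% of 3189 genes and for none of these 7, with adjusted p = 0.998 for each (edgeR).

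**Figure D2:**
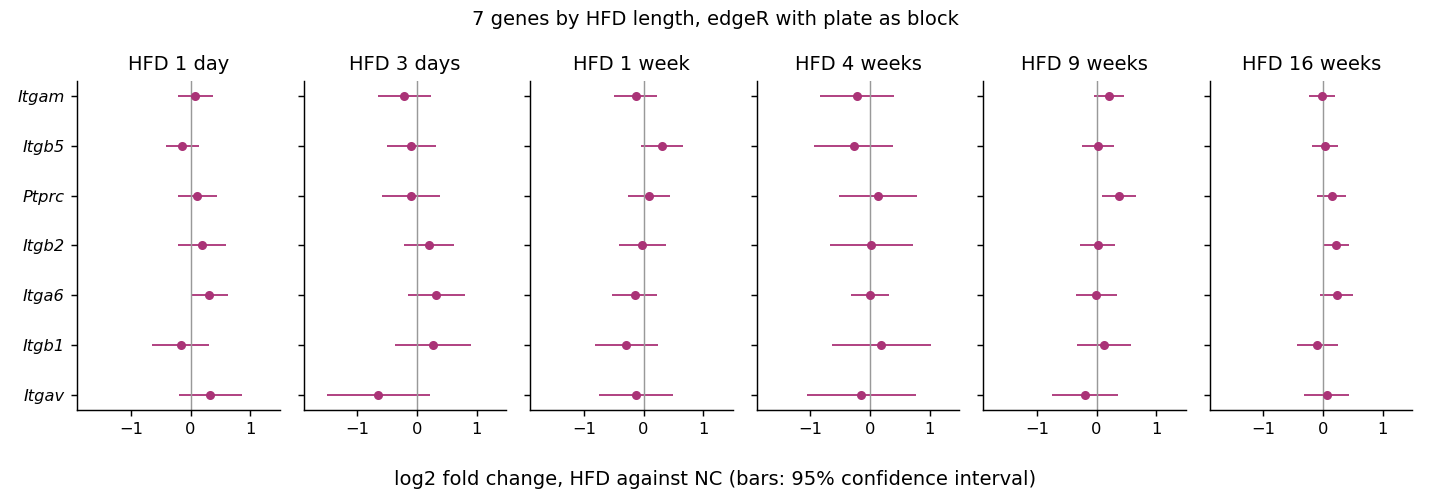
log2 fold change of 7 genes in HFD against NC microglia at each HFD length. Points are edgeR estimates with plate as a block and bars are 95% confidence intervals. Itgav at 3 days has the lowest estimate (-0.65), and Ptprc at 9 weeks the highest (0.38).

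Among the edgeR values for HFD, that of Ptprc at 9 weeks had the smallest p of the set. On plates 10 to 12 the 6 HFD sums of 2 replicates had 554, 713 and 944 CPM as lowest, median and highest, and the 12 NC sums of 4 replicates had 284, 563 and 671 CPM. HFD was higher by its median, and the groups overlapped. The log2 fold change was 0.38 (SE 0.14), with p = 0.0104 and adjusted p = 0.366 (edgeR). With 1 sum per identifier over the plates, Ptprc had 0.35 (SE 0.16), with p = 0.0319 and adjusted p = 0.957 (edgeR). Exact permutation of the replicates gave p = 0.0667 for the level, the smallest it can give here. At 16 weeks, on the same plates and 3 others, the log2 fold change of Ptprc was 0.14 (SE 0.12, adjusted p = 0.937).

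Itgb2 had its lowest p for HFD at 16 weeks. The 10 HFD sums had 427, 698 and 879 CPM as lowest, median and highest, and the 18 NC sums had 415, 588 and 817 CPM. The ranges overlapped almost wholly, and the log2 fold change was 0.22 (SE 0.11, adjusted p = 0.833, edgeR). Over all alternatives it ran from 0.13 to 0.38. Within plates the level was 97.9 CPM higher, with p = 0.00667 by exact two-sided permutation of replicates (450 assignments). The share of wells with an Itgb2 UMI, at 1000 UMIs a well, was 5.40 percentage points higher with p = 0.0178, while without thinning the difference was 4.88 points with p = 0.0667. Such permutation p-values are unadjusted, and of all genes tested at 16 weeks, 2.61% gave one under 0.05 with a higher share. At 9 weeks, on 3 of the same plates and with 12 of the same NC sums, the log2 fold change of Itgb2 was 0.02 (SE 0.15, adjusted p = 0.988).

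Itga6, the laminin-binding alpha chain, had its lowest p for HFD at 1 day. The 6 HFD sums had 555, 690 and 789 CPM as lowest, median and highest, and the 6 NC sums had 466, 557 and 635 CPM. Of the 6 HFD values, 4 were above the highest NC value, and the groups overlapped. The log2 fold change was 0.32 (SE 0.16, adjusted p = 0.800, edgeR), and over all alternatives it ran from 0.16 to 0.45. The level was 131 CPM higher with p = 0.015 by exact permutation (400 assignments). The share of wells with a UMI was 4.54 points higher, with p = 0.27 by the same permutation.

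At 1000 UMIs a well, Itgav at 3 days had the largest difference in detection. The 4 HFD sums had an Itgav UMI in 13.2% and 13.3% of wells on plate 4 and in 15.6% and 7.3% on plate 13, at 1000 UMIs a well. The NC sums had 24.1% on plate 4, from 7 wells of 1 replicate, and 19.2%, 19.5%, 22.8% and 22.5% on plate 13. The first 2 of these on plate 13 were named 24wks, while the other NC and all HFD replicates here were named 14wks. The HFD shares were lower than every NC share, as was the case for 1.17% of the 938 genes tested. The difference of -9.98 points had p = 0.0222 by exact permutation, the smallest that its 45 assignments can give. On plate 5, which had no NC sum, the 3-day replicates M24 and M25 of plate 4 had 24.3% and 23.5%, close to the highest NC share. Without thinning the difference was -9.12 points with p = 0.111. The level differed by -73.9 CPM (exact permutation p = 0.0222), with overlap, from 79.5 to 176 CPM in HFD and from 168 to 257 CPM in NC. The log2 fold change was -0.65 (SE 0.43, adjusted p = 0.777, edgeR), with a 95% confidence interval from -1.51 to 0.21. With NC replicates named 14wks alone, Itgav had -0.61 (SE 0.44, adjusted p = 0.857, edgeR). Over all alternatives the Itgav value at 3 days ran from -0.92 to -0.12, with -0.31 without replicate M18 of plate 13, -0.21 without plate 13 and -0.12 without the plate block.

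Over the 9 genes and 6 lengths, 54 permutation tests of detection at 1000 UMIs a well were run, and the 2 above gave an unadjusted p under 0.05. Other versions of the share, such as that without thinning, were tested as well and are not in this count. Among the 54 tests of the level in CPM, 3 did, those of Itga6 at 1 day, Itgav at 3 days and Itgb2 at 16 weeks. By level, 3.47% of all tested genes at 1 day, 3.52% at 3 days, 3.12% at 1 week and 2.84% at 16 weeks had such a p as higher, and 2.82%, 2.24%, 1.59% and 2.61% as lower. By share of wells, such a p came with a higher share in 3.47% at 1 day, 2.45% at 3 days, 2.65% at 1 week and 2.61% at 16 weeks, and with a lower share in 2.53%, 2.88%, 1.94% and 2.44%. Groups without overlap were rarer still, at 0.0723% in each direction at 1 day, 0.746% as higher at 3 days and 0.176% as higher at 1 week, and none of the 9 genes was among these. At 4 weeks the shares of 2 genes did not overlap between 3 HFD and 2 NC sums. Itgav had 8.4 to 20.4% in HFD and 20.9 to 24.1% in NC, and Ptprc had 51.0 to 61.3% in HFD and 44.1 to 47.8% in NC. On plate 5, without NC, the 4-week replicates M20 and M21 had Ptprc in 21.9% and 44.5% of wells, against 61.3% and 52.5% on plate 4. Of 1856 genes tested there, 8.19% were lower and 6.3% higher without overlap, and no p under 0.167 was possible. Without thinning, Ptprc at 3 days also had p = 0.0222 by exact permutation, with a share 10.9 points higher. At 1000 UMIs a well its share was 1.9 points higher with p = 0.667 by the same permutation, and its log2 fold change was -0.10. How many of all genes had such a p without thinning was not computed. Itgam, Itgb1 and Itgb5 had no unadjusted p under 0.05 at any HFD length, whether by edgeR or by permutation. For Itgam the log2 fold changes were between -0.22 and 0.20, for Itgb1 between -0.29 and 0.26 and for Itgb5 between -0.28 and 0.31.

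**Figure D3:**
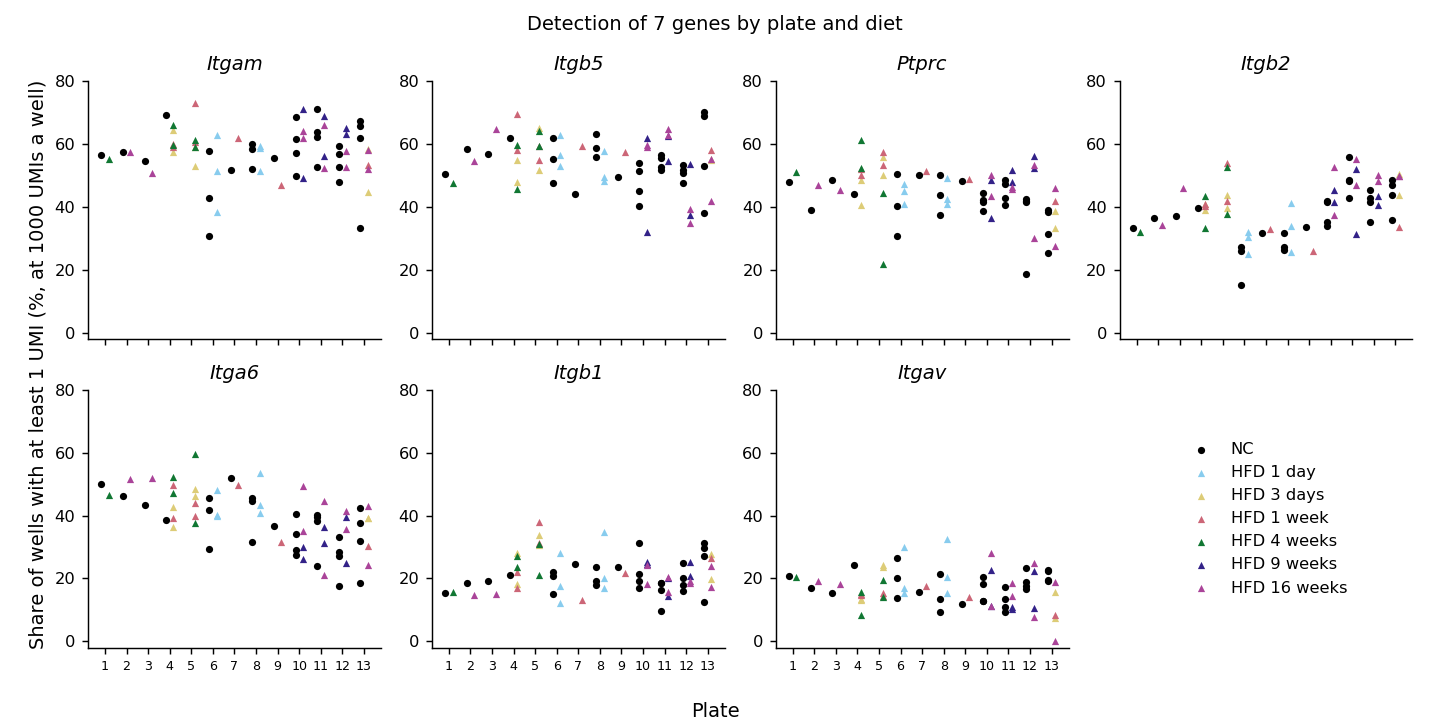
Share of wells with at least 1 UMI of each of 7 genes, at 1000 UMIs a well, by plate. Circles are NC sums and triangles HFD sums, coloured by HFD length. HFD and NC overlap on most plates, and the NC sums of Itgb2 lie lower on plates 6 to 9 than on plates 10 to 13.

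Itgax and Itgal, left out of the fit, were compared by detection and level alone. Itgax had UMIs in 1 of 161 wells at 1 day (0.621%, exact 95% interval 0.0157 to 3.41%), 8 of 121 at 3 days (6.61%, 2.90 to 12.6%), 9 of 172 at 1 week (5.23%, 2.42 to 9.70%), 6 of 128 at 4 weeks (4.69%, 1.74 to 9.92%), 3 of 82 at 9 weeks (3.66%, 0.761 to 10.3%) and 12 of 231 at 16 weeks (5.20%, 2.71 to 8.90%). The share at 1 day was the lowest, and NC wells of its plates 6 and 8 were low as well, with 1 well of 151 on plate 6 and 2 of 165 on plate 8 holding Itgax in both diets together. These shares were not thinned, and the median transcripts per well ran from 2395 at 1 day to 3678 at 9 weeks. Within plates no difference in Itgax level was larger than the spread between replicates, with p from 0.267 to 0.933 by exact permutation. Itgal gave 3 UMIs at 3 days, 1 at 1 week, 2 at 4 weeks and 2 at 16 weeks. At 1 day it was found in 0 of 161 wells, where 3 counts would be a share of 1.86% and the exact 95% interval reached 2.27%. At 9 weeks it was found in 0 of 82 wells, where these limits were 3.66% and 4.40%. They bound the share of wells with a UMI, not of cells that express the gene.

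The wells with MHC class II transcripts were set beside the other wells of plates 4 and 5, as a description without a test. Of 197 wells there, 33 were in this class, from 6 of 7 replicates. The median well of the class had 5995 UMIs, and that of the others 4312. Itgal had 4 UMIs in 3 of these 33 wells and 1 UMI in the other 164. By level this was 18.6 CPM (exact Poisson 95% interval 5.05 to 47.5) against 1.43 CPM (0.036 to 7.95), and these intervals overlapped. Of the 12 wells with an Itgal UMI in the whole study, 5 had MHC class II transcripts. Ptprc was at 719 CPM in the class (exact Poisson 95% interval 610 to 841) and at 742 CPM (680 to 809) in the other wells. Itgam was at 835 CPM (717 to 966) against 1072 (996 to 1151), and Itgb5 at 659 CPM (555 to 776) against 936 (866 to 1010), with intervals that cover counting error only and do not meet. On plate 4 alone, with 23 of the 33 wells, the Itgam intervals overlapped, at 901 CPM (760 to 1061) against 1005 (911 to 1107). On plate 5 those of Itgam did not meet, at 644 CPM (451 to 892) against 1167 (1045 to 1299). The Itgb5 intervals did not meet on plate 4, at 632 CPM (515 to 768) against 925.5 (835 to 1023). On plate 5 they overlapped, at 733.5 CPM (526 to 995) against 951 (841.5 to 1071). Itgam was lower in the class in 4 of these 6 replicates, and the others had 12 wells and 1 well of it. By replicate, it was 682 against 1146 CPM in M24, 669 against 1235 in M21 and 460 against 972 in M20, but 1083 against 1054 in M23. Itgax had 4 UMIs in the 33 wells, or 18.6 CPM, and 14 UMIs in the 164 others. Ccr2, which marks monocytes, was at 839 CPM in the class and at 5.71 CPM in the rest, but 10 of the 33 wells held its 181 UMIs, 137 of them in 4 wells of plate 5, and Mrc1, which marks border-associated macrophages, at 213 against 21.4 CPM. P2ry12 was at 2184 against 4069 CPM, with a UMI in 30 of the 33 wells. The part of such cells in the differences between the classes was not tested. The 1-week comparison, whose 5 passing genes were H2-Aa, H2-Eb1, H2-Ab1, Cd74 and Gm42418, included plate 4.

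The largest log2 difference of Itgb2 in these data lay between sets of plates and not between diets, where it was -0.02 to 0.22. Well names carry 9wks on plates 6 to 9 and 24wks on plates 10 to 12 and for some replicates of plate 13. The 8 NC replicates of 9wks had 219, 322, 328, 383, 401, 409, 417 and 443 CPM of Itgb2, and the 6 of 24wks had 570, 587, 596, 624, 669 and 678 CPM. The groups did not overlap, with means of 365 ± 72.4 (SD, n = 8) and 621 ± 44.4 CPM (SD, n = 6), and 0.508% of 1379 genes were higher and 0.798% lower in 24wks without overlap. The comparison was chosen after the levels by plate had been seen. The log2 difference was 0.69 (SE 0.15, adjusted p = 0.00435, edgeR), and Itgb2 was the only one of the 7 tested genes to pass. Of all 1379 genes 3.48% passed, 1.23% as higher and 2.25% as lower. The share of wells with Itgb2, at 1000 UMIs a well, was 42.5% in 24wks and 27.4% in 9wks (exact permutation of replicates p = 0.000333, the smallest possible). These p-values take replicates of a plate as independent, although weeks and plates are nested. With the mean of each plate set as the unit, 2 sets of 24wks had 619 and 624 CPM and 4 of 9wks had 316 to 442 CPM, with p = 0.0667 by exact permutation, the smallest that 15 assignments allow.

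HFD replicates of the same plates, which were not in that comparison, differed in the same direction, but lay on the same plates and add no further plate set. Their mean was 407 ± 105 CPM (SD, n = 8) in 9wks and 677 ± 76.0 CPM (SD, n = 6) in 24wks, from 292 to 566 and from 567 to 802 CPM. Over plate sets the exact permutation p was 0.0667. By share of wells at 1000 UMIs these groups overlapped, from 25.1 to 41.4% and from 38.6 to 52.2%. Of 1379 genes, 0.58% were higher and 1.16% lower without overlap in the same replicates. Their HFD lengths differed too, since 9wks replicates had 1 day or 1 week of HFD and 24wks replicates had 9 or 16 weeks. Itga6 was lower in 24wks, at 407 ± 78.0 CPM (SD, n = 6) against 571 ± 98.4 CPM (SD, n = 8), with overlap between 466 and 491 CPM. Its log2 difference was -0.50 (SE 0.15, adjusted p = 0.0568, edgeR), which became -0.55 with adjusted p = 0.0373 without replicate M11 of plate 13 and 0.0419 without M13 of plate 8. In HFD replicates Itga6 was 415 ± 74.8 against 653 ± 119 CPM (SD, n = 6 and 8), and over plate sets the exact permutation p for Itga6 was 0.2 in either diet. Itgam was 0.32 higher on the log2 scale (SE 0.14, adjusted p = 0.199, edgeR). Its NC replicates overlapped, from 884 to 1284 CPM in 24wks and from 490 to 944 CPM in 9wks. Over plate sets its exact permutation p was 0.0667 in NC, the smallest possible, and 0.8 in HFD. Ptprc, Itgb1, Itgb5 and Itgav had log2 differences between -0.22 and 0.03.

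**Figure D4:**
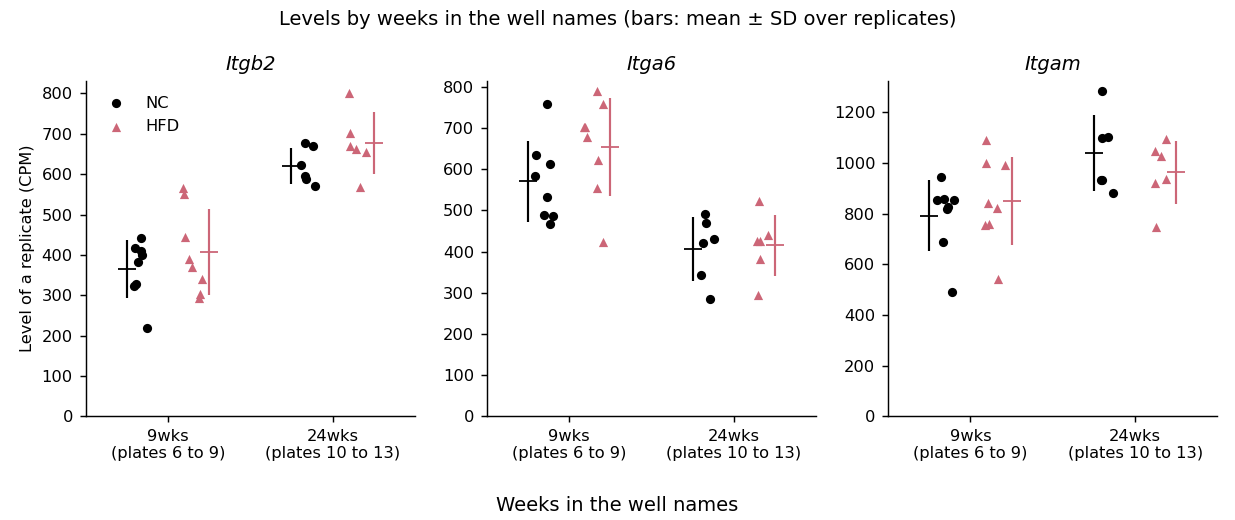
Level of Itgb2, Itga6 and Itgam in each replicate by the weeks in the well names, in CPM. Circles are NC and triangles HFD replicates, and bars are the mean ± SD. Itgb2 is higher and Itga6 lower in the 24wks replicates in both diets.

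Weeks in the names and plates cannot be told apart between these sets. On plate 13 alone, 2 NC replicates named 24wks had 678 and 570 CPM of Itgb2, and 2 named 14wks had 533 and 621 CPM. The NC replicate of plate 4, also named 14wks, had 436 CPM. Those of plate 1 and of plates 2 and 3, whose wells had medians of 2664 and 2893 transcripts, had 450 and 478 CPM. Depth moved with the sets, since the median transcripts per well were 2018 to 2547 in the 8 NC replicates of 9wks and 2628 to 4156 in the 6 of 24wks, and its part in the difference was not tested. The plate sets differed in other genes as well, and the smallest p was that of the predicted gene Gm43333 (log2 difference -8.54), followed by mt-Co1 of the mitochondrial genome (2.29).

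Genes around the integrins were counted by list. Of the list of 20 other integrin genes, none was tested in any comparison. Of 31 genes of integrin activation and adhesion complexes, 4 to 12 were tested for HFD and none passed, with adjusted p of 0.581 or more (edgeR). Those with the highest level were Apbb1ip, which links Rap1 to talin, at a median of 825 CPM over NC sums, the adaptor Lims1 at 309 CPM and the GTPase Rap1b at 301 CPM. Of 29 ligands and partners, 2 to 4 were tested and none passed for HFD. F11r, a junction protein that binds LFA-1, had 1019 CPM, Nrros, which holds latent TGF-beta on myeloid cells, 262 CPM and Tgfb1 179 CPM. F11r passed between the plate sets, 0.60 higher on the log2 scale in 24wks (SE 0.13, adjusted p = 0.00506, edgeR). Of 21 Src family kinases, phosphatases and their partners around CD45, 9 or 10 were tested and none passed, and Pag1 (465 CPM), Ptpn6 (400 CPM) and Lyn (398 CPM) had the highest levels.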

How the data were processed

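The authors' deposited plate tables hold, per gene and well, an estimated count of transcripts, that is UMIs corrected for chance repeats with 4096 tags, without normalization. Per the study's methods and the submitters' notes, reads were trimmed with Cutadapt, mapped with STAR to GRCm38/mm10 and counted with featureCounts, and the use of strand is not given in the sources used here. The authors' filtered table gave 17280 gene names for totals, and its 843 columns of values were not used. Counts were summed per replicate identifier, diet and plate (at least 1500 transcripts per well, at least 5 wells per sum) and rounded. They were tested with edgeR 4.0.16 (quasi-likelihood, TMM, filterByExpr) in R 4.3.3 with plate as a block, Benjamini-Hochberg adjustment over all tested genes and a threshold of 0.05, after a test on simulated data. DESeq2 1.42.0 and limma 3.58.1 were alternatives. CPM were computed over the 17280 genes. Shares of wells were computed as the expectation at 1000 UMIs and compared by exact two-sided permutation of identifiers within linked plates. Gene places came from GENCODE M21 and upstream sequences from RefSeq. Likeness used log2 CPM with a prior count of 2. Wells were taken as single cells from the sort, and doublets were not called. The 9 genes are named in every comparison, and of each list the 3 with the highest NC level and any that passed. Lymphocytes, neutrophils and other types were counted at 3 UMIs of a list and MHC class II at 5. The genes, lists and tests were chosen with earlier results of these data known.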

Additional observations from a re-analysis of the deposited data

Results flagged for a closer look

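In 36 checks of a gene in a group of 4 to 6 HFD replicates, 3 had a replicate far from the others by Dixon's test at 95%, which chance gives in about 1 of 20 groups of continuous values. For Itgax and Itgal every other replicate was at 0, so that a single UMI always passes and this rate does not apply. Itgav was at 0 CPM in replicate M10 of plate 13 at 16 weeks of HFD, from 8 wells, while the other 4 replicates had 181 to 219 CPM. Itgax was at 12.7 CPM in replicate M16 of plate 8 at 1 day, from 1 UMI, and at 0 in the other 5. Itgal was at 32.3 CPM in replicate M13 of plate 13 at 1 week, from 12 wells and 1 UMI, and at 0 in the other 4.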

How the results depend on the processing

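At 4 weeks, at least 10 wells a sum and the removal of wells with other markers (Csf3r included) left too few sums to fit, and voom with correlated replicates applied only at 9 and 16 weeks. In all alternatives run for HFD against NC, 0 of the tested genes of the set passed, with edgeR, DESeq2 and voom. Of the log2 fold changes under the alternatives, 1106 kept their side of the threshold. Where the reported value had not passed, these moved by at most 1 SE, small changes of sign included. Another 31 moved by more than 1 SE without a change of sign. A further 27 changed sign by more than 1 SE of the reported value, none past the threshold. The cause was not tested. Without the plate block these were -0.16 (Itgam) and -0.40 (Itgb2) at 1 day, 0.15 (Itgam), 0.12 (Itgb5) and 0.19 (Ptprc) at 3 days, 0.11 (Itgam), 0.16 (Itga6) and 0.18 (Itgb1) at 1 week, and 0.14 (Itgam) and 0.44 (Itga6) at 4 weeks. Without a filter on genes they were 0.12 (Itgam), 0.24 (Itgb5) and 0.24 (Ptprc) at 3 days. With at least 2500 transcripts a well they were -0.14 (Itgam, 1 day) and 0.24 (Itgb2, 1 week), and with at least 10 wells a sum 0.14 (Itgb5, 3 days). Without wells with markers of other types they were 0.38 (Itgb5, 3 days) and -0.17 (Itgb2, 9 weeks). Leaving out a plate gave -0.069 (Itgav) and 0.12 (Itgb5) at 1 day without plate 8, 0.19 (Itga6, 4 weeks) without plate 1, -0.15 (Itgb2, 9 weeks) without plate 10 and -0.10 (Itgb5, 16 weeks) without plate 11.

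Leaving out 1 replicate at a time gave -0.13 to 0.19 for Itga6 at 4 weeks, -0.32 to 0.27 for Itgb5 at 9 weeks and -0.0087 to 0.21 for Ptprc at 16 weeks. Between NC replicates of 24wks and 9wks, 1 to 2 genes of the set passed. Itgb2 passed in all 19 settings, and Itga6 passed without replicate M11 of plate 13 (-0.55, adjusted p = 0.0373, edgeR) and without M13 of plate 8 (-0.55, adjusted p = 0.0419). That comparison, its HFD counterpart, its test over plate sets, the removal of Csf3r from the neutrophil list and the matching of weeks on plate 13 were chosen after seeing the data. No paired analysis was possible because identifiers differ between the diets.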
